A study of Mus musculus with 5 samples.

Results

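The 38 genes described here carry the Wnt signal between cells of the early mouse forelimb: 18 encode Wnt ligands, 12 encode receptors (Fzd1 to Fzd10, Ror1 and Ror2), and 8 encode secreted inhibitors (Sfrp1, Sfrp2, Sfrp4, Sfrp5, Dkk1, Dkk2, Dkk3 and Wif1). They were listed by name, out of 21631 protein-coding genes, as members of these families, with earlier results of these data known. Peaks of accessible chromatin from 5 libraries were merged where they shared at least 1 bp, and every merged region inside a member gene or within 50 kb of it was taken. This gave 432 of the 86713 regions of the series: 234 at ligand genes, 142 at receptor genes and 56 at inhibitor genes. Neighbouring ligand genes shared 69 of these regions (21 for Wnt6 and Wnt10a, 19 for Wnt1 and Wnt10b, 16 for Wnt3 and Wnt9b, 13 for Wnt3a and Wnt9a), and such a region was counted once within its class.

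ATAC-seq marks open chromatin by where a transposase can insert adapters. Each library was made from 50K cells of the anterior forelimb pair of single embryos at stage E11.5, with 40 to 48 somites. All embryos carried the conditional Smarcc1 allele on both chromosomes. The 2 controls (Prx+/+;Smarcc1c/c) had no Cre, and the 3 mutants (PrxCre/+;Smarcc1c/c) carried Prx-Cre, which is active in the mesenchyme of the limb and its descendants and not in limb ectoderm, so other cell types of the bud still had the intact gene. Smarcc1 encodes a core subunit of the BAF chromatin remodelling complex, and the series addressed its part in GLI-mediated repression, the silencing of Hedgehog target genes. Each measurement is a called peak, with the fold over background that the authors' peak caller gave it. That fold is the authors' own value within 1 list, is not scaled between libraries and is used here to describe and rank peaks. Where no peak was called, chromatin may still be open to a lesser degree, since the weakest peak of each list had a fold of 2.43 and 2.29 (controls 1 and 2) or 2.47, 2.46 and 2.52 (mutants 1 to 3).

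Wnt ligands are secreted, lipid-modified proteins that bind frizzled receptors. With the co-receptors Lrp5 and Lrp6 they stabilise beta-catenin, which acts on genes through LEF and TCF factors, and with Ror1 or Ror2 they steer cell polarity and movement without beta-catenin. In the limb bud, Wnts of the ectoderm keep the mesenchyme beneath them proliferating and hold back cartilage formation, and Wnt5a with Ror2 directs the outgrowth of the limb. Sfrp proteins and Wif1 bind the ligands outside the cell, whereas Dkk1 and Dkk2 act on the co-receptors.

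Promoter sequences from RefSeq (assembly GRCm38.p6, the coordinates of mm10) covered 30 starts of 27 of the 38 members, out of 32619 starts. The 6 windows below hold the 250 bases before a start, on the strand of the gene. They were chosen after their peaks were seen, because they show the range of outcomes at member starts: Fzd4, Fzd7 and Fzd1 had a peak over the start in all 5 libraries, Wnt11 (its first start) and Dkk1 had one in every library but mutant 3, and the peaks of both controls over the start of Wnt16 had no counterpart there in any mutant. Capitals mark LEF/TCF letters (CTTTGAT or CTTTGAA, either strand) in Wnt11 and Dkk1 and the E-box letters CATATG or CAGATG in Fzd1 and Wnt16.

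Fzd4 (chr7:89404116-89404365, plus strand): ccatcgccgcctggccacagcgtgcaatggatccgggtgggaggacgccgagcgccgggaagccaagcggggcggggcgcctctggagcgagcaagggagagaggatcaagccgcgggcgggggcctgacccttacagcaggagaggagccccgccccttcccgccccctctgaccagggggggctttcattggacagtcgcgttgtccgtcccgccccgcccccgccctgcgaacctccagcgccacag
Fzd7 (chr1:59481897-59482146, plus strand): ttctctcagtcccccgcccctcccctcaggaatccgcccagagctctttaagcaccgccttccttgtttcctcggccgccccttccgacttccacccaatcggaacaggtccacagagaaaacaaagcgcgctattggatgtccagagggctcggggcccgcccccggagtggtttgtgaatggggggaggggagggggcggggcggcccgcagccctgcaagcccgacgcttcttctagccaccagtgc
Fzd1 (chr5:4758217-4758466, minus strand): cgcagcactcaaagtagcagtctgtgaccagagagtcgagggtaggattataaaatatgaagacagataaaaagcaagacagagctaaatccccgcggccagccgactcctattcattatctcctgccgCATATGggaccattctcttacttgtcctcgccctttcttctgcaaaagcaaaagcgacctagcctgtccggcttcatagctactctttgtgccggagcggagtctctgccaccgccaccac
Wnt11 (chr7:98834862-98835111, plus strand): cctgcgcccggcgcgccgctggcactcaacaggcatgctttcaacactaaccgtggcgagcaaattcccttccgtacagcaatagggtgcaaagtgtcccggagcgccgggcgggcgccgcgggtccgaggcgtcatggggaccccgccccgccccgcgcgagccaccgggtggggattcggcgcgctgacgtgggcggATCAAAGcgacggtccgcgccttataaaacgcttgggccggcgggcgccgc
Dkk1 (chr19:30549497-30549746, minus strand): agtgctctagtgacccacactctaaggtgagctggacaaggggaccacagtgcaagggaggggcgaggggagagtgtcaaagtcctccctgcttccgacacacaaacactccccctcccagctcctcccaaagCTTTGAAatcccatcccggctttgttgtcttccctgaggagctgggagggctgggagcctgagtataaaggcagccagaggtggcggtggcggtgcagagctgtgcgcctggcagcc
Wnt16 (chr6:22287977-22288226, plus strand): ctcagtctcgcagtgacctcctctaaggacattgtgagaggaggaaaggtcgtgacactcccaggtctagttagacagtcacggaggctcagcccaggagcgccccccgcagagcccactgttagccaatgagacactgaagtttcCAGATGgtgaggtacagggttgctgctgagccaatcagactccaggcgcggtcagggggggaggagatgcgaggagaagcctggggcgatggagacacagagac

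The median content of G and C was 73.0% in 8 receptor windows, 70.8% in 17 ligand windows, 60.8% in 5 inhibitor windows and 52.4% over all starts. The classes overlapped, with 51.2% to 76.4% at receptors, 48.4% to 87.6% at ligands and 55.6% to 63.6% at inhibitors. Receptor windows held a median of 24.5 CpG pairs, against 22 at ligands, 13 at inhibitors and 6 over all starts. LEF/TCF letters were found in 3 of the 30 member windows (Dkk1, Wnt11 and Wnt5b), where 7.50% of all windows held them. The E-box letters, a form bound by TWIST factors, were in 4 (Fzd1, Ror2, Wnt16 and Wnt5b), against 17.2% of all windows. AP-1 letters (TGANTCA) were in the windows of Ror2 and Wnt5b (6.78% of all windows), homeodomain letters (TAATTA) in that of Wnt8b (4.80%), and GLI letters (GACCACCCA) in 0 of 30 (0.227%). All were searched on both strands, and the motifs as written do not contain one another. These letters are descriptions of the windows and not known binding sites.

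Across the members, control 1 had a peak in 329 regions and control 2 in 268, while mutants 1, 2 and 3 had one in 155, 223 and 93. Every mutant lay below both controls, with a mean of 298.5 ± 43.1 (SD, n = 2) against 157 ± 65.0 (SD, n = 3). An exact two-sided permutation test over libraries gave p = 0.2. With p taken as 2 times the smaller tail, this is the smallest value for 2 against 3 libraries. The same order held over all regions of the series, with 65278 and 56368 in the controls against 32398, 38839 and 23634 in the mutants (p = 0.2, the same exact test). The peak lists themselves differed in length (68959 and 60333 peaks against 36719, 42794 and 27194). When every list was reduced to its strongest 27194 peaks, the order was lost at the members: their regions then numbered 118 and 108 in the controls against 123, 132 and 95 in the mutants, a mutant mean 3.67 above the control mean (exact permutation p = 0.8). Over the series, every mutant still lay below both controls on these lists, with 26740 and 26570 regions against 25294, 25806 and 23747 (exact permutation p = 0.2). In a bulk sample, fewer cells of a type with an open region and less accessibility per cell cannot be told apart.

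By class, the mutants lay below the controls to varying extents, and at ligands not in every library. Receptor genes had 122 and 92 regions in the controls against 41, 58 and 27 in the mutants, and the groups did not overlap (exact permutation p = 0.2). Inhibitor genes had 48 and 39 against 24, 21 and 16, again without overlap (exact permutation p = 0.2). Ligand genes had 159 and 137 against 90, 144 and 50, where mutant 2 lay between the controls (exact permutation p = 0.4). On lists of equal length the receptor values were 45 and 39 against 36, 37 and 27, the inhibitor values 20 and 23 against 19, 15 and 16, and neither overlapped, as was the case over the series. The ligand values were then 53 and 46 against 68, 80 and 52, a mutant mean 17.2 above the control mean (exact permutation p = 0.4), so the direction at ligands depended on the length of the lists.

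**Figure D1:**
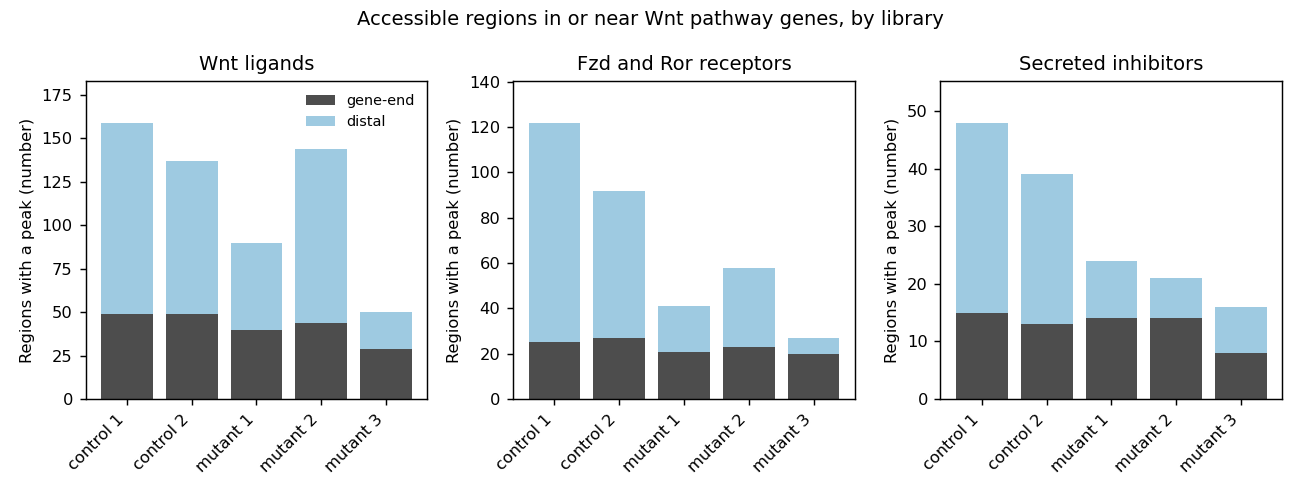
Number of regions with a peak (vertical axis, from 0) in each of the 5 libraries, split into regions within 1 kb of the end of any protein-coding gene (dark) and distal regions (light), for 18 ligand, 12 receptor and 8 inhibitor genes. Distal receptor regions numbered 97 and 65 in the controls against 20, 35 and 7 in the mutants, while mutant 2 had 100 distal ligand regions, between the 110 and 88 of the controls.

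Both controls shared 230 member regions, of which 65 (28.3%) had no peak in any mutant and 81 (35.2%) had one in all mutants. Over the whole series these shares were 30.4% and 43.4%. Mutants 1, 2 and 3 lacked 41.3%, 36.1% and 60.9% of the 230 regions, against 39.1%, 38.6% and 51.8% over the series, a difference whose sign was not the same in all mutants. By class, 22 of 114 ligand regions (19.3%), 32 of 81 receptor regions (39.5%) and 11 of 35 inhibitor regions (31.4%) had no peak in any mutant. Without control 2 these shares were 46.7% for all members, 38.1% for ligands, 57.9% for receptors and 45.8% for inhibitors, since regions of control 1 alone then entered. The series shares rose as well without control 2, to 58.9% of distal and 12.0% of gene-end regions, where members gave 57.8% and 16.7%. With lists of equal length the shares of members, ligands, receptors and inhibitors were 15.1%, 10.3%, 19.4% and 16.7%, where the series gave 13.4%. As a measure of how far 2 embryos of 1 genotype differ, control 2 lacked 30.1% of the 329 member regions of control 1, and mutants 1, 2 and 3 lacked 56.5%, 51.98% and 72.6% of them. Over the series, control 2 lacked 30.8% of the regions of control 1, and the mutants lacked 55.8%, 54.2% and 65.9%. In the other direction, control 1 lacked 14.2% of the 268 member regions of control 2, and the mutants lacked 48.5%, 42.9% and 65.7%, against 19.9% and then 49.3%, 48.2% and 60.5% over the series.

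Most regions that lacked mutant peaks were distal, that is, over 1 kb from either end of any protein-coding gene. Of 149 distal member regions in both controls, 56 (37.6%) had no peak in any mutant, against 42% over the series. Of 81 gene-end regions, 9 (11.1%) had none, against 4.64% over the series. In mutants 1, 2 and 3 the distal share lacking a peak exceeded the gene-end share by 40.9, 32.8 and 46.3 percentage points, with a mean of 40.0 ± 6.78 (SD, n = 3). The difference had the same sign in all 3 mutants, for which an exact sign-flip permutation test gives p = 0.25, its smallest value. Over all regions of the series the same difference averaged 46.8 ± 3.44 points. On lists of equal length 12 of 40 distal member regions (30.0%) and 2 of 53 gene-end regions (3.77%) had no mutant peak, against 25.8% and 1.03% over the series. Without control 2, the distal member share was 57.8% and the series share 58.9%.

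Among distal regions, the receptor genes lacked mutant peaks more often than the ligand genes. Distal rests on gene ends alone, so regions at a start inside a gene body count as distal. At ligands these included regions at starts of Wnt2, Wnt6, Wnt9b and Wnt11, found in all 5 libraries. At Wnt6 control 1 alone had a peak within 50 bases of the start (fold 5.55), and the other peaks lay further inside the gene. A region over a start of Wnt5b had a peak in mutant 1 alone among the mutants. The receptor starts with a promoter sequence all lay at gene ends, and the ligand shares without these start regions were not worked out. Mutants 1, 2 and 3 lacked 70.2%, 54.4% and 89.5% of the 57 distal receptor regions, against 41.4%, 34.3% and 71.4% of the 70 distal ligand regions. The ligand share was lower in every mutant, by -28.7, -20.1 and -18.0 percentage points, with a mean of -22.3 ± 5.68 (SD, n = 3, exact sign-flip permutation p = 0.25, the smallest possible). Over all distal regions of the series the mutants lacked 52.7%, 52.8% and 67.5%, so the receptor share lay above it in each mutant, by 17.5, 1.58 and 22.0 points. The 22 distal inhibitor regions were lacking at 63.6%, 72.7% and 63.6%. Their difference from receptors was -6.54, 18.3 and -25.8 points, which has no common sign (mean -4.68 ± 22.1, SD, n = 3, exact sign-flip permutation p = 0.75).

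Counted over all mutants together, 28 of 57 distal receptor regions (49.1%), 10 of 22 distal inhibitor regions (45.5%) and 18 of 70 distal ligand regions (25.7%) had no mutant peak. The ligand share was 48.6% without control 2, 39.3% without control 1 and 38.9% without mutant 2, where the receptor share was 67.0%, 58.0% and 69.0% and that of all distal regions 58.9%, 52.3% and 49.2%. On lists of equal length 4 of 18 distal ligand regions (22.2%), 6 of 16 receptor regions (37.5%) and 2 of 6 inhibitor regions (33.3%) had no mutant peak, against 25.8% of all distal regions. The receptor share was the higher of the pair in each of these 5 settings.

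**Figure D2:**
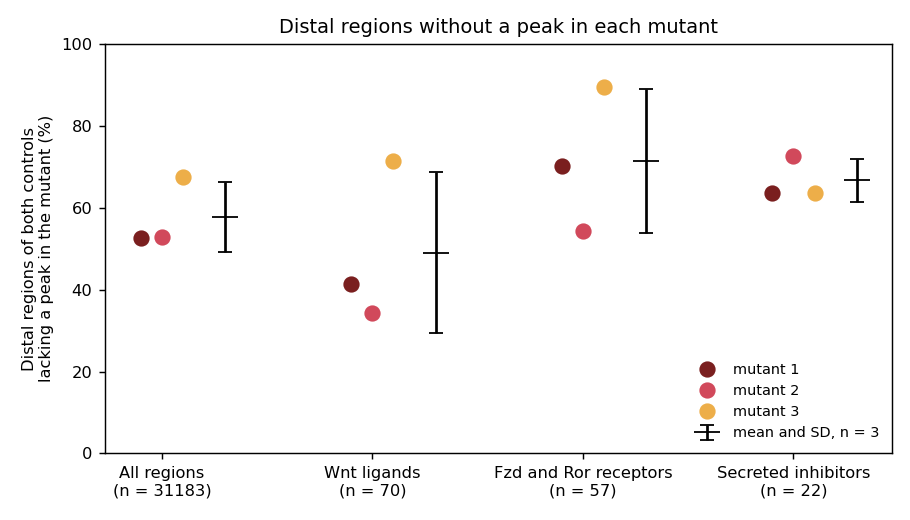
Percentage of the distal regions shared by both controls (number under each name) that had no peak in mutants 1, 2 and 3 (points), with the mean and SD over the 3 mutants (bars). Receptor values lie between 54.4% and 89.5% and ligand values between 34.3% and 71.4%, and in each mutant the receptor value is the higher of the pair.

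Peak strength in the controls moved with these outcomes. Strength was ranked as the mean percentile of the fold within the 2 control lists. Distal member regions without a mutant peak had a median percentile of 41.5, and those with a peak in all mutants a median of 68.6. Over the series these medians were 41.5 and 75.3. With the distal regions of the series divided by strength into 3 groups of about equal size, 69.2% of the 26 weakest receptor regions, 41.2% of 17 in the middle and 21.4% of the 14 strongest had no mutant peak. The ligand shares were 31.0% of 29, 32.0% of 25 and 6.25% of 16, and the series shares 63.4%, 44.3% and 18.03%. The receptor share was therefore above the ligand share in each strength group, by the most among the weakest regions.

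On the lists as deposited, no member region had a peak in all 3 mutants and neither control (0 of 432, against 0.0484% over the series). There were 4 with a peak in 2 mutants and neither control (0.926%, against 0.625% over the series), all at ligand genes. They included regions at an end of Wnt7b (chr15:85582245-85582744, fold 3.39 in mutant 1 and 3.94 in mutant 2), in the body of Wnt4 (chr4:137282122-137283327) and at an end of Wnt10b (chr15:98778306-98778536, in mutants 2 and 3). The region in the annotated body of Wnt6 (chr1:74771120-74771483) lay just before the start that has a promoter sequence. The folds of the 4 regions were low, between 2.96 and 3.94. With lists of equal length, 10 of 197 member regions had a peak in all mutants and neither control, against 677 of 40887 over the series. At ligand genes there were 8 such regions of 108, at receptor genes 1 of 61 and at inhibitor genes 1 of 28. Shortening the lists drops the weaker control peaks, so this count depended on the length of the lists.

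Mutant 2 stood apart at the ligand genes. It alone had a peak in 55 member regions (12.7%, against 8.03% over the series), and 45 of these were at ligand genes, 9 at receptor genes and 1 at an inhibitor gene. The 45 ligand regions, 19.2% of the 234, were all distal and weak, with a fold between 2.46 and 4.11 and a median of 3.12. Wnt11 had 9 of them, Wnt7b 7, and Wnt1, Wnt3, Wnt9b and Wnt10b 6 each, with shared regions counted for each gene. Mutants 1 and 3 alone had a peak in 3 and 0 ligand regions, and controls 1 and 2 alone in 37 (15.8%) and 18 (7.69%). Over the series, controls 1 and 2 alone had a peak in 19.7% and 10.3% of all regions. Of the 6965 regions of the series found in mutant 2 alone, 5944 were distal. The median fold of the 6965 was also 3.12, so weak and distal peaks of mutant 2 were not particular to ligand genes. On lists of equal length mutant 2 alone still had a peak in 17 of 108 ligand regions (15.7%, against 7.34% over the series).

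Counted by gene, 22 of the 38 members (57.9%) had fewer regions in every mutant than in either control, where 38.8% of the 18733 genes with a region did. These were 11 of 12 receptor genes, 5 of 8 inhibitor genes and 6 of 18 ligand genes (Wnt2, Wnt2b, Wnt5a, Wnt5b, Wnt9a and Wnt16). In contrast, 9 members (23.7%, against 14.8% of all genes with a region) had more regions in mutant 2 than in either control. They were Fzd9 and the ligand genes Wnt1, Wnt3, Wnt4, Wnt6, Wnt7b, Wnt9b, Wnt10a and Wnt10b, among which 3 pairs are neighbours that share regions. Mutant 3 had the fewest regions of the 5 libraries at 22 of the 38 genes.

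**Figure D3:**
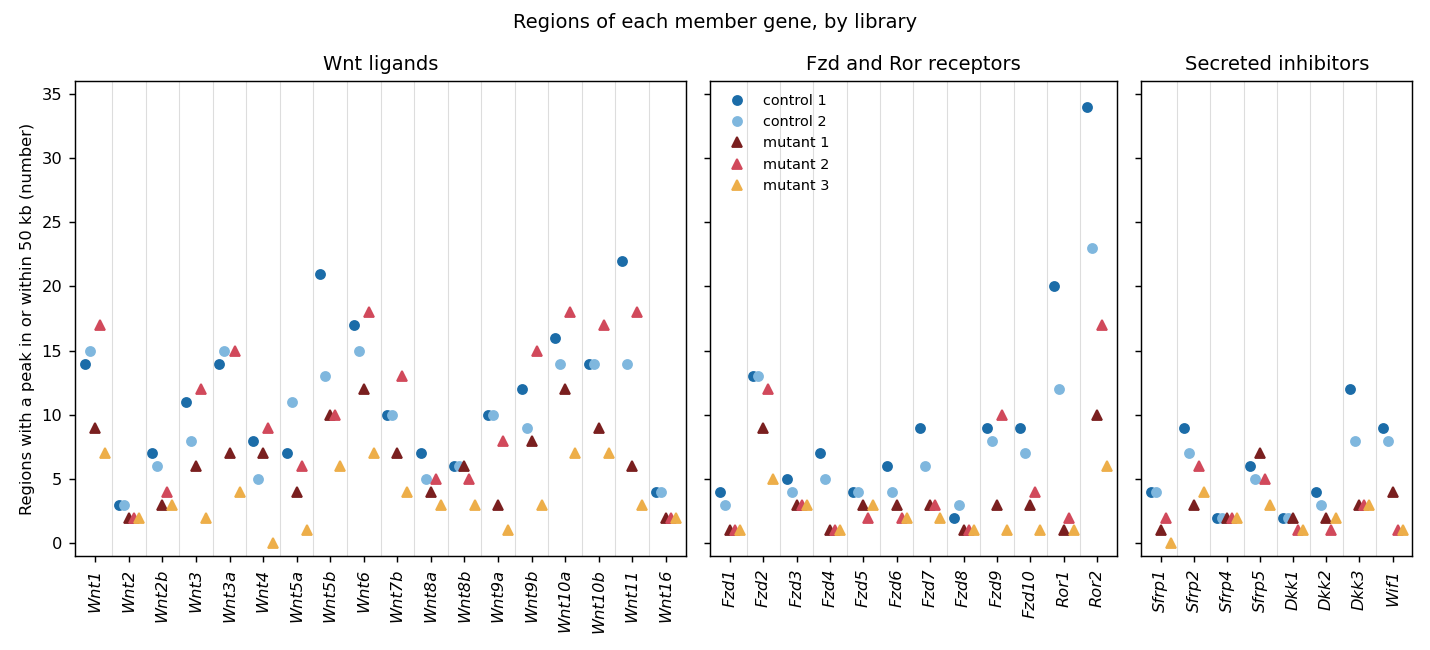
Number of regions with a peak in or within 50 kb of each of the 38 member genes (vertical axis), with circles for the 2 controls and triangles for the 3 mutants. All triangles lie below both circles at Ror1 (20 and 12 against 1, 2 and 1), while mutant 2 lies above both controls at Wnt9b (12 and 9 against 8, 15 and 3).

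Among the ligands, Wnt11 had the most regions without mutant peaks. Wnt11, a ligand that mostly acts without beta-catenin, had 22 and 14 regions in the controls against 6, 18 and 3 in the mutants. Mutant 2 thus lay between the controls, and the other two lay below both. Of its 12 regions in both controls, 5 had no mutant peak: 3 in the gene body and 2 beyond its far end. The strongest of these 5 in control 1 was in the body (chr7:98850910-98851703, fold 5.90 and 3.10). A region 17.3 kb from the gene (chr7:98814303-98817819) had folds of 11.1 and 7.82 in the controls against 7.56, 10.5 and 7.74 in the mutants, so it was found in all 5 libraries. The region at the first start, whose sequence is printed above, had folds of 4.51 and 3.77 in the controls, 3.86 and 4.43 in mutants 1 and 2 and no peak in mutant 3. The region over a second start had 7.46 and 7.55 against 6.33, 6.73 and 5.21.

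Wnt5a, the main Wnt ligand of limb outgrowth, had 7 and 11 regions in the controls against 4, 6 and 1 in the mutants, without overlap. The single region left in mutant 3 was the one at its own gene end (chr14:28503766-28511751), with folds of 6.76 and 6.06 in the controls against 7.10, 7.88 and 4.37 in the mutants. The strongest ligand region without any mutant peak lay 14.5 kb from the gene (chr14:28541964-28542757), with folds of 5.37 and 5.12. Next in strength were a region 38.3 kb from Wnt6 (chr1:74715566-74716031, fold 4.68 and 4.04) and one 22.7 kb from Wnt3 (chr11:103840724-103841298, fold 4.85 and 3.91). Wnt3 is a ligand of the limb ectoderm that maintains the signalling ridge at the tip of the bud. It had 11 and 8 regions in the controls against 6, 12 and 2 in the mutants, so mutant 2 had the most.

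Wnt5b, a close relative of Wnt5a, had 21 and 13 regions in the controls against 10, 10 and 6 in the mutants, without overlap. Of 13 regions in both controls, 5 were in all libraries and 2 in no mutant. One of the 5, 43.0 kb from the gene (chr6:119388015-119389527), was the strongest distal ligand region, with folds of 10.4 and 8.35 against 7.10, 8.70 and 6.73. Wnt9a, which acts in joint formation, had 10 and 10 regions against 3, 8 and 1, and 3 of its 7 regions in both controls had no mutant peak. Wnt3a, a ligand that acts through beta-catenin, had 14 and 15 regions against 7, 15 and 4 and was the single member with no region at its own ends in any library. The strongest region counted for it (chr11:59207792-59209848, fold 9.71 and 9.30 against 7.71, 10.7 and 5.21) lay at an end of 2310033P09Rik.

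Wnt6 and Wnt10a, both ligands of ectoderm, lie side by side and had the most regions in all 5 libraries. Wnt6 had 17 and 15 regions in the controls against 12, 18 and 7 in the mutants, and Wnt10a had 16 and 14 against 12, 18 and 7. In both cases mutant 2 was the highest of the 5 libraries. Of the regions in both controls, 7 of 14 at Wnt6 and 7 of 13 at Wnt10a were in all mutants, and 2 and 1 were in none. The 1 at Wnt10a was at its own end (chr1:74791281-74791647, fold 3.29 and 2.56), a weak peak at the 12.0 percentile of the controls. The stronger end region of Wnt10a (chr1:74802912-74804099) had folds of 7.63 and 6.87 against 5.86, 9.36 and 4.04. The strongest region near any ligand in all libraries was at ends of Kmt2d and Prkag1, 36.8 kb from Wnt1 (chr15:98830679-98832076, fold 10.4 and 10.4 against 8.33, 9.85 and 6.06).

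A region at an own end was in both controls for 16 of 18 ligand genes, all but Wnt3a and Wnt8b. It was in all mutants for 12 of these 16, or 75.0%, against 88.9% of all genes with such a region. The strongest region at either end of these genes had a median control percentile of 56.5, against 89.7 at receptors and 84.1 at inhibitors. Mutant 3 lacked this strongest region at Wnt4, Wnt8a, Wnt10b and Wnt11, and mutant 1 at Wnt1 and Wnt8a. Wnt11 is still among the 12 genes through another own-end region (chr7:98835660-98837540). That region had folds of 4.33 and 3.77 in the controls against 4.17, 5.26 and 3.70 in the mutants. Wnt4, a ligand known from kidney and gonad, had 8 and 5 regions in the controls, 7 and 9 in mutants 1 and 2 and 0 in mutant 3. At Wnt16 the end region (chr6:22287971-22290162) was in all libraries, with folds of 8.15 and 4.99 against 4.32, 3.78 and 4.21, but the mutant peaks lay inside the gene and not over the printed window.

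**Figure D4:**
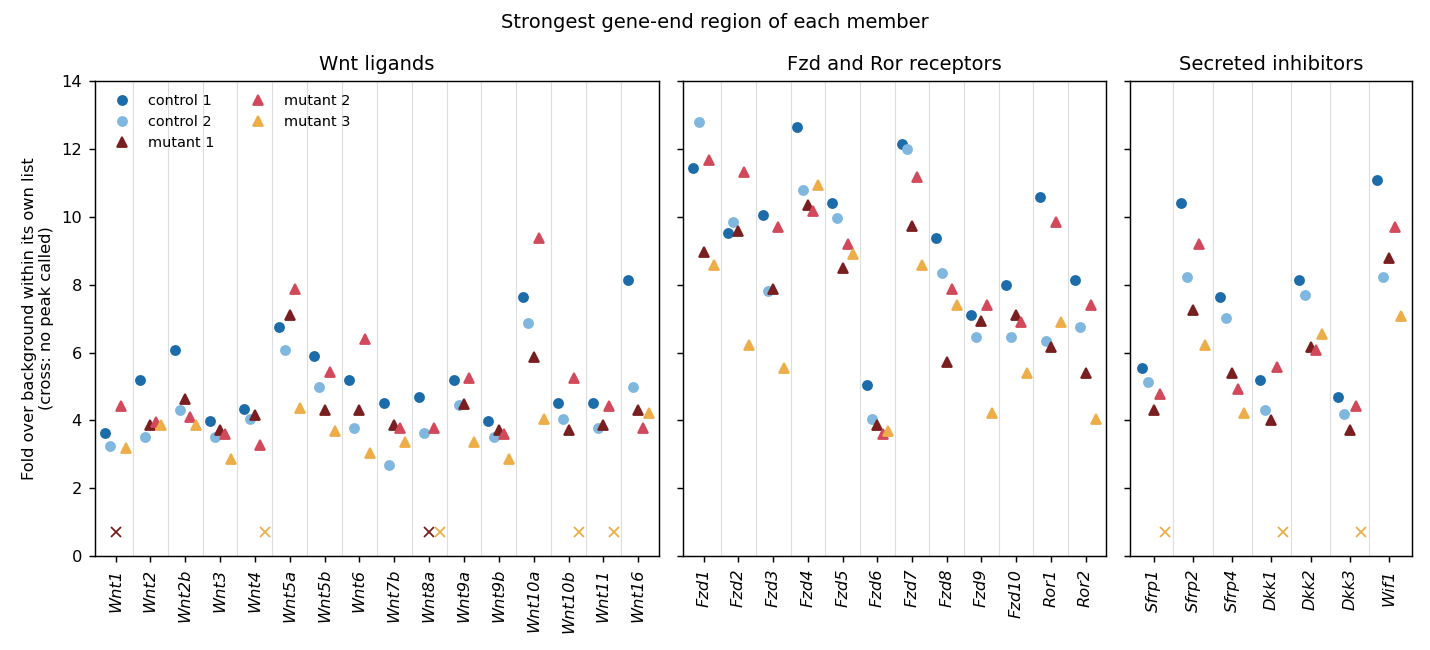
Fold over background, within each library's own list, at the strongest gene-end region of the 35 member genes that had one in both controls (circles: controls, triangles: mutants, crosses: no peak called). All 12 receptor genes have a peak in all 5 libraries, and the crosses of mutant 3 fall on 4 ligand and 3 inhibitor genes.

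All 12 receptor genes had a region at one of their own ends in all 5 libraries, against 88.9% of all genes with such a region. Of their 57 distal regions, 28 (49.1%) had no mutant peak, against 42% over the series. Of 24 receptor regions at an end of any gene, 4 (16.7%) had none, against 4.64% over the series. The strongest own-end regions were those of Fzd7 (chr1:59480736-59485309), with folds of 12.1 and 12.0 in the controls against 9.72, 11.2 and 8.58 in the mutants, and Fzd1 (chr5:4755439-4759049), with 11.4 and 12.8 against 8.95, 11.7 and 8.58. Both encode frizzleds that can act through beta-catenin. A region 38.5 kb from Fzd5 was close to these in strength (chr1:64689697-64692045, fold 12.0 and 11.9 against 8.02, 10.2 and 9.42) but lay at an end of Ccnyl1.

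Ror1, a receptor tyrosine kinase-like protein that binds Wnt5a, had the largest relative gap of the 38 members. Its 20 and 12 regions in the 2 controls compared with 1, 2 and 1 in the mutants, so the mutant mean of 1.33 ± 0.58 (SD, n = 3) was 91.7% lower than the control mean of 16 ± 5.66 (SD, n = 2). Of 9 regions in both controls, 7 had no mutant peak, 1 had a peak in mutant 2 alone among the mutants, and 1 was in all libraries. The last was the start (chr4:100095589-100096765), with folds of 10.6 and 6.33 in the controls against 6.17, 9.85 and 6.90 in the mutants, so the groups overlapped there. The 7 without mutant peaks had control folds between 2.77 and 5.25, and 4 of them were inside the gene. The region 35.7 kb before the gene (chr4:100059502-100060121, fold 4.33 and 4.85) was the strongest of the 7.

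Ror2, the receptor through which Wnt5a acts in limb outgrowth, had the most regions of any member, with 34 and 23 in the controls against 10, 17 and 6 in the mutants. Of 21 regions in both controls, 6 were in all mutants, 7 in none and 8 in some. The region at its start (chr13:53284467-53286707) had folds of 8.15 and 6.74 against 5.40, 7.39 and 4.04, and that at its far end (chr13:53109410-53110571) 5.90 and 4.72 against 4.32, 6.41 and 3.87. Within the gene, the strongest distal region in the controls (chr13:53201456-53202473) had folds of 8.50 and 10.6, then 5.71 and 4.11 in mutants 1 and 2 and no peak in mutant 3. A region 22.7 kb before the start (chr13:53308833-53310551) had 7.80 and 10.1 against 4.94, 6.08 and 3.20 and was found in all libraries. The strongest of the 7 without mutant peaks was inside the gene (chr13:53167269-53167842, fold 4.85 and 4.85).

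**Figure D5:**
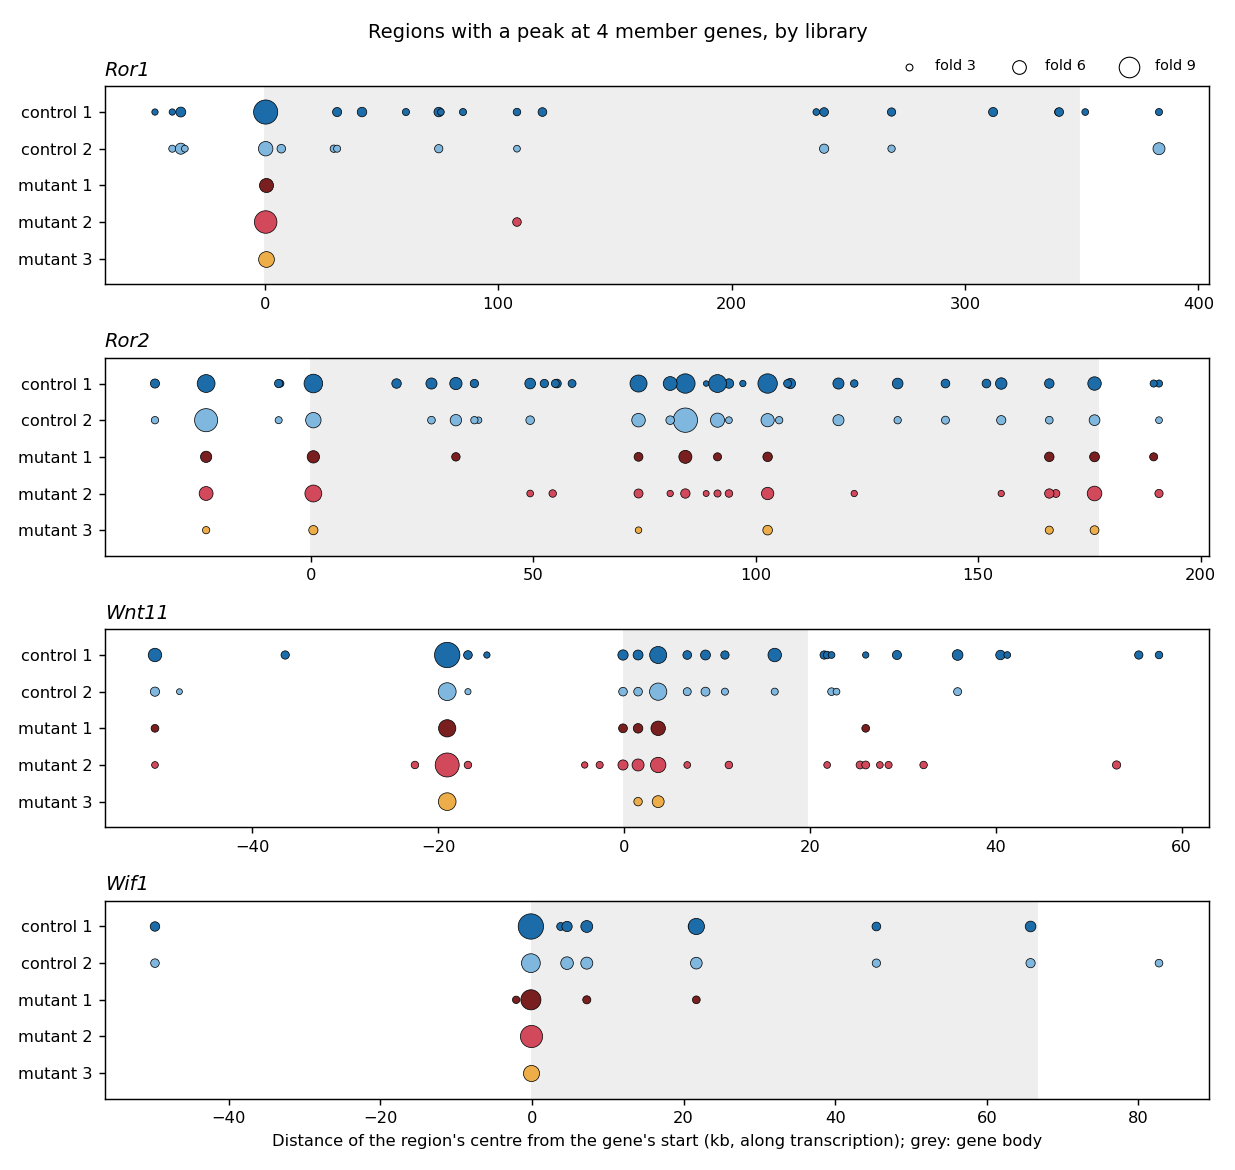
Regions with a peak at Ror1, Ror2, Wnt11 and Wif1 by library, placed by the distance of the region's centre from the gene's start (horizontal axis, kb), with circle area growing with the square of the fold within that library's list. At Ror1 the mutants have 1, 2 and 1 regions, and the start is the one found in all 5 libraries, whereas Ror2 has 6 regions found in both controls and all mutants.

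Fzd4, known for its part in blood vessel growth, had 7 and 5 regions in the controls and 1 in each mutant. The 1 in every mutant was its start (chr7:89402740-89405603), shared with an end of Tmem135, with folds of 12.7 and 10.8 in the controls against 10.3, 10.2 and 10.9 in the mutants. The 3 others in both controls had no mutant peak. They included the strongest such regions of any member, one 22.7 kb before the gene (chr7:89380816-89381668, fold 6.76 and 4.99) and one at the far end of the gene (chr7:89408861-89410086, fold 5.20 and 5.66). A region 13.2 kb from Fzd10 (chr5:128617328-128618115, fold 5.03 and 5.39) followed in strength among receptor genes.

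Fzd2, a frizzled that can pair with Ror2 for Wnt5a, differed from this pattern. It had 13 and 13 regions in the controls against 9, 12 and 5 in the mutants, and 1 of its 12 regions in both controls had no mutant peak. Its strongest own-end region (chr11:102602712-102606492) had folds of 9.54 and 9.84 against 9.57, 11.3 and 6.22, with overlap between the groups. Fzd7 had 9 and 6 regions against 3, 3 and 2, with 3 of 6 absent from all mutants. Fzd3, which acts in planar polarity, had 5 and 4 against 3, 3 and 3, with 3 of 4 in all libraries. Fzd9 had 9 and 8 against 3, 10 and 1, and was the receptor gene at which a mutant exceeded both controls. Fzd1 had 4 and 3 regions against 1, 1 and 1, and those without mutant peaks included a weak region at its far end (chr5:4754704-4755411, fold 3.64 and 3.37). The remaining receptor genes had 2 to 9 regions in a control and 1 to 4 in a mutant.

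Frizzled and Ror genes gave like shares. Of 31 distal frizzled regions in both controls, 15 (48.4%) had no mutant peak, and of 26 distal Ror regions 13 (50.0%), against 42% over the series. In mutants 1, 2 and 3 the share lacking a peak was 67.7%, 54.8% and 93.5% at frizzled genes and 73.1%, 53.8% and 84.6% at Ror genes. All distal regions of the series gave 52.7%, 52.8% and 67.5%, close to both families in mutant 2. The frizzled and Ror values overlapped, and the difference was not tested.

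Among the inhibitors, Wif1 had the most regions without mutant peaks. Wif1, which binds Wnt ligands outside the cell, had 9 and 8 regions in the controls against 4, 1 and 1 in the mutants. Its start (chr10:121033015-121034721) was in all libraries, with folds of 11.1 and 8.22 in the controls against 8.79, 9.69 and 7.06 in the mutants. Of 7 regions in both controls 4 had no mutant peak, among them one in the gene body (chr10:121038353-121038925, fold 4.51 and 5.52) and one at the far end (chr10:121099344-121100208, fold 4.68 and 4.04). A body region with stronger control peaks (chr10:121055338-121056043, fold 7.11 and 5.12) had a peak of fold 3.39 in mutant 1 and none in mutants 2 and 3.

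The Sfrp genes encode secreted decoys with a frizzled-like domain. Sfrp2 had 9 and 7 regions in the controls against 3, 6 and 4 in the mutants, and 3 of its 6 regions in both controls were in all libraries. They were both regions at its start (chr3:83765386-83767265, fold 10.4 and 8.22 against 7.25, 9.20 and 6.22, and chr3:83763757-83764972, fold 9.71 and 7.55 against 8.33, 7.39 and 7.74) and one beyond its far end (chr3:83789306-83790570, fold 5.55 and 5.39 against 6.33, 4.93 and 3.70). Sfrp4 had 2 regions in every library, 1 of them at an end of Epdr1 (chr13:19618809-19620076, fold 9.19 and 8.08 against 6.48, 9.03 and 7.23). Sfrp5 had 6 and 5 regions against 7, 5 and 3, so the groups overlapped, and it had no own-end region in both controls. Sfrp1 had 4 and 4 against 1, 2 and 0, and mutant 3 had none, including at its own ends.

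Dkk1 and Dkk2 block the Lrp co-receptors, and Dkk3 is a diverged relative. Dkk3 had 12 and 8 regions in the controls and 3 in each mutant. Of 7 in both controls 3 had no mutant peak, and 2 neighbouring regions beyond an end (chr7:112180013-112180628 and chr7:112183153-112183662) were in all libraries. The first of this pair had folds of 4.51 and 4.04 against 4.63, 3.94 and 4.54. Dkk2 had 4 and 3 regions against 2, 1 and 2, and its start (chr3:132083867-132087479) had folds of 8.15 and 7.68 against 6.17, 6.08 and 6.56. A region 6.49 kb from Dkk2 (chr3:132186793-132187467, fold 4.68 and 4.04) had no mutant peak. Dkk1 had 2 regions in each control and 2, 1 and 1 in the mutants, and its start (chr19:30548451-30549819) had folds of 5.20 and 4.31 against 4.01 and 5.58, with no peak in mutant 3. Mutant 3 lacked the end regions of Sfrp1, Dkk1 and Dkk3, so 4 of 7 inhibitor genes with such a region had it in all mutants (57.1%, against 88.9% of all genes with such a region).

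The other genes of the pathway, a list of 43 that shares no region with the members, gave the following counts. They had 478 and 433 regions in the controls against 272, 387 and 198 in the mutants (exact permutation p = 0.2). Of 346 regions in both controls, 72 (20.8%) had no mutant peak and 174 (50.3%) were in all libraries. Over the series these shares were 30.4% and 43.4%. The share without mutant peaks was 33.8% of 74 at genes of the R-spondin axis, 23.8% of 42 at co-receptors, 19.2% of 26 at secretion genes and 12.6% of 87 at cytoplasmic genes, with 21.9% of 64 at planar polarity genes and 16.7% of 60 at further secreted inhibitors. Among distal regions alone the shares were 46.3% of 54 (R-spondin axis), 33.3% of 27 (co-receptors), 55.6% of 9 (secretion) and 19.5% of 41 (cytoplasm). They were 30.6% of 36 at planar polarity genes and 29.4% of 34 at further secreted inhibitors, against 42% over the series. The genes with the most regions without mutant peaks were Znrf3, which removes frizzleds from the cell surface (7 of 14), Wls, which escorts ligands to the surface (4 of 6), Lgr5, an R-spondin receptor (4 of 9), and Kremen1, a Dkk receptor (4 of 12). Those with the most regions in all libraries were Ptk7, a planar polarity co-receptor (11 of 17), and Notum, which strips the lipid from ligands (9 of 15).

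Markers of the cell types of the bud were counted in the same way. Of 7 limb mesenchyme genes, 7 and 7 had a peak at a gene end in the controls against 7, 7 and 5 in the mutants. Of 11 ectoderm genes the numbers were 9 and 10 against 8, 7 and 4, with Trp63 at none in any library. Of 6 endothelial genes they were 4 and 2 against 2, 2 and 2 (Pecam1 and Cdh5 at none), of 4 muscle precursor genes 4 and 3 against 3, 3 and 1, and of 4 neural crest and glial genes 4 and 3 against 3, 4 and 3. Of 4 blood genes 1 had such a peak in every library, and Gata1, Hba-a1 and Ptprc had none. Regions at the genes of every list were fewer in each mutant than in either control, as over the series. The mutant mean was lower by 41.8% at mesenchyme, 47.7% at ectoderm, 60.4% at endothelial and 54.4% at muscle precursor genes. It was lower by 40.9% at neural crest and glial genes and 28.4% at blood genes, against 48.0% over the series. The part of cell make-up in the results at ligand, receptor and inhibitor genes was not tested.

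Background per position, worked out from the fold grid, was 4.77 and 6.42 fragments for the controls against 5.48, 5.09 and 4.95 for the mutants, and the number of reads is unknown. Background did not separate the genotypes, whereas the number of peaks did, and mutant 3 had the shortest list. Smarcc1 itself had a region at its gene end in all libraries (fold 10.9 and 10.2 against 9.26, 8.38 and 8.41), which does not check the deletion, since the sources used here do not give the part of the gene removed.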

How the data were processed

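The submitters' processing notes name bcl2fastq 2.20.0, Bowtie2 2.3.5, MACS2 and the mm10 build. Peak-calling options, duplicate removal and any shift for transposase insertion (not given in the sources used here) could change borders and weak peaks. The authors deposited 1 list per library, not pooled, with positions and summits (other values, in bp), a score for display (not used), a fold enrichment ratio, and −log10 p-values and −log10 q-values. The lowest deposited −log10 q was 1.50 to 1.69.

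Peaks on chromosomes 1 to 19 and X were merged over the 5 lists where they shared at least 1 bp. Each library came from 1 embryo, which is the replicate. Replicate numbers follow sample order and pair nothing. Genes came from the RefSeq table of GRCm38.p6, which gives both ends and no strand. Gene-end means within 1 kb of either end, and the promoter table gave the start of 27 members.

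The members, gene lists and rules were chosen with earlier results of these data known. In each class, the genes named in full were up to 5 with the most regions in both controls, up to 3 with the most absent from all mutants and up to 3 with the most in all libraries, with the 3 strongest absent and the 3 strongest shared regions and gene-end regions. Others are named by count or value, or were chosen after their values were seen.

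Region numbers were compared with an exact permutation test over libraries (10 arrangements). Its two-sided p is 2 times the smaller tail, so 0.2 is the smallest, as the design stated. Differences within mutants were compared with an exact sign-flip test over the 3 mutants (smallest p 0.25). No design here can reach 0.05. Merging and counting were tested on simulated lists. The motif search planned around peak summits needs a genome and was made in promoter windows instead. Python 3.11.15, numpy 2.4.6, pandas 2.3.3, scipy 1.17.1 and matplotlib 3.10.9 were used.

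Alternatives were −log10 q of at least 5 or 10, equal list lengths, a 10 kb flank, a 2.5 kb end window, other overlap and assignment rules, and leaving out each library. Distal class shares without each library, and distal shares and regions of mutant 2 alone on equal lists, were added after seeing the data.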

Additional observations from a re-analysis of the deposited data

How the results depend on the processing

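Of 135 recomputed values, 115 kept the direction of the main value or lay within 1 SD of it, 13 moved by more than that and 7 changed sign. For absent shares the SD was that of the shares lacking a peak in each mutant (16.9 points at ligands), a wide margin. For region numbers and for differences between classes or locations a kept sign was enough, so the 115 are a loose check. With every list at 27194 peaks, the mutant mean lay 3.67 regions above the control mean over all members and 17.2 above it at ligands, where the main differences were -141.5 and -53.3. On those lists the share of control regions absent from all mutants was 15.1% (members), 19.4% (receptors) and 16.7% (inhibitors), and inhibitors minus receptors came to 9.03 percentage points at distal regions. That last difference was -4.68 in the main analysis, 2.19 with a −log10 q of at least 5 and 13.1 with a 10 kb flank. The inhibitor share was 38.7% at a −log10 q of at least 5 and 23.1% at 10. Fewer regions enter each of these settings, through fewer peaks on the shortened lists and through the narrower reach with the 10 kb flank.

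With each library left out in turn, the absent share ranged from 29.1% to 46.7% for members, from 20.2% to 38.1% for ligands, from 39.5% to 57.9% for receptors and from 34.3% to 45.8% for inhibitors, lowest without mutant 3 and highest without control 2. The absent share of all distal regions of the series ranged from 43.9% without mutant 3 to 58.9% without control 2. Members minus all regions ranged from -0.145 without mutant 3 to 5.11 without mutant 2, and inhibitors minus receptors from -14.8 without mutant 2 to 5.90 without mutant 3; the cause was not tested. The differences of distal from gene-end regions and of ligands from receptors had the same sign under every alternative run. No paired analysis was possible because replicate numbers follow sample order and pair nothing. Read depth is unknown, so a missing peak may be a peak under the caller's threshold.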
